A study of Rattus norvegicus with 12 samples.

Results

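The 4 genes described here encode cues that act on oligodendrocyte progenitor cells (OPCs), the cells that mature into myelin-forming oligodendrocytes: *Bmp4*, *Jag1*, *Vcan* and *Sema3f*. They were chosen by name for this role, with earlier results of these data known, and all 4 are among the 9394 genes that the authors kept after a filter on low counts, of 17941 genes in the larger table. They were measured by 3′ RNA sequencing in primary astrocyte (ASTR) cultures of young adult female Wistar rats. The gmASTRs (6 libraries) were grown from cerebral cortex after the meninges had been taken off. The wmASTRs (6 libraries) were grown from the non-cortical remainder of the brain without the amygdala, so that white matter tracts such as the corpus callosum were mixed with hippocampus, thalamus and basal ganglia. No culture of either group received a treatment, and all were kept for 20 days and passaged at least once. Both cultures of an animal were prepared together, and neither group was sorted. *Vcan* was higher in wmASTRs by 2.45-fold and *Sema3f* was higher in gmASTRs by 3.31-fold, and both differences passed the main test, an edgeR fit with region as its factor, although that of *Sema3f* was lost with a replicate block and with limma-voom. *Bmp4* and *Jag1* had higher means in wmASTRs that did not pass the main test but passed in some other fits, among them DESeq2 and the replicate block.

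The 4 proteins reach progenitors by different routes. BMP4 is a secreted ligand of the bone morphogenetic protein (BMP) family that binds type I and type II receptor kinases, activates SMAD proteins and induces the *Id* genes, and in OPCs it holds back maturation and favours an astrocytic fate. Jagged1 (*Jag1*) is a membrane-bound ligand of Notch receptors, whose cleavage by a presenilin complex releases a fragment that switches on *Hes* and *Hey* genes, a signal known to keep OPCs undifferentiated. Versican (*Vcan*) is a chondroitin sulphate proteoglycan of the lectican family that binds hyaluronan in the extracellular matrix, and proteoglycans of this kind impede outgrowth of OPC processes. Semaphorin 3F (*Sema3f*) is a secreted guidance cue that acts through neuropilin and plexin receptors and is known to attract migrating OPCs.

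The promoters of the 3 genes with higher means in wmASTRs are shown for sequence context, since RNA counts alone do not measure their activity. Each is the 250 bases before the annotated start, from RefSeq on rat build GRCr8, read 5′ to 3′ on the minus strand. Capitals mark matches on either strand to the motifs searched, which were the GC box GGGCGG, the TATA box TATAAA, the CCAAT box CCAAT, the E-box CACGTG, the RBPJ core TGGGAA, the SMAD palindrome GTCTAGAC, the AP-1 site TGANTCA and the TEAD site CATTCC.
Bmp4: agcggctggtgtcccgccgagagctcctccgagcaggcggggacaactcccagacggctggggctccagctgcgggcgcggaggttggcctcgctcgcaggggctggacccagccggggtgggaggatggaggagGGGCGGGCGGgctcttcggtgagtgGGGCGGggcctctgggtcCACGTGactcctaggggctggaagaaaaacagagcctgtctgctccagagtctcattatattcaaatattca
Jag1: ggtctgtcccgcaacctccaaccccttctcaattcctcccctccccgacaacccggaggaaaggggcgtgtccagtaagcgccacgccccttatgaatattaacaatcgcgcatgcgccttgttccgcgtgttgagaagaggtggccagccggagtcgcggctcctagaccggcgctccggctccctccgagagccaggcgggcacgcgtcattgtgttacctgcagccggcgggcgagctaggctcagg
Vcan: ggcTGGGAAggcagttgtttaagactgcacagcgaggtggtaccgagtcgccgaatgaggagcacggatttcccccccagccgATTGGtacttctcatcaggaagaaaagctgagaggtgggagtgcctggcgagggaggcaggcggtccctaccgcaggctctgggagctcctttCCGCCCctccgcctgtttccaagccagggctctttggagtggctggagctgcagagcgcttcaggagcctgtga
The *Bmp4* window lies at chr15:22101934-22102183, the *Jag1* window at chr3:144894884-144895133 and the *Vcan* window, before the upstream one of 2 annotated starts, at chr2:22595956-22596205. They hold 66.4%, 64.4% and 61.6% G and C, against a median of 51.2% over the 33469 windows of the same length. *Bmp4* has 3 GC box matches, of which the first pair overlap, and 1 E-box match, which are found in 30.5% and 5.59% of all windows. *Vcan* has 1 GC box, 1 CCAAT box and 1 RBPJ match, and the CCAAT and RBPJ letters are found in 34.0% and 22.1% of all windows. None of the 8 motifs has a match in the *Jag1* window. *Sema3f* has no entry in the table used.

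Libraries held between 4920488 and 7207118 counted reads, and 3 counts correspond to 0.418 to 0.613 CPM (counts scaled to a total of 1000000 in each library), far below every value of the 4 genes. The fewest reads behind a value were 37, for *Sema3f* in gmASTR 5. Transcripts of *Gfap*, a defining astrocyte marker whose protein was not measured in these libraries, were at 0 in all gmASTR libraries and at most 10.6 CPM in wmASTRs. By western blot, the paper detected GFAP protein in both kinds of culture, with more in wmASTRs. The gap junction gene *Gja1*, also an astrocyte marker, averaged 4813 and 4389 CPM. The summed CPM of 8 named leptomeningeal markers, of 16 listed, was 2411 to 5652 in 5 gmASTR libraries, 857 in gmASTR 5 and 383 to 829 in wmASTRs. *Cldn11* (means of 1852 and 27.6 CPM) and *Cdh1* (891 and 26.3 CPM) made up most of that gap, and *Tbx18*, *Crabp2*, *Aldh1a2* and *Islr* did not pass the test. The 2 named mural cell markers, of 8 listed, summed to 29.2 to 172 CPM in gmASTRs and 376 to 943 CPM in wmASTRs, and 4 named microglia markers, of 8, to 3.48 to 49.6 and 79.0 to 256 CPM, with the highest sum of both in wmASTR 4. Sums were also higher in wmASTRs for 3 named endothelial markers, of 8 (7.92 to 28.2 against 29.1 to 315 CPM, the highest in wmASTR 4), where *Esam* (means of 8.91 and 107 CPM) made up most of the wmASTR sum and neither *Egfl7* (7.84 and 10.4 CPM) nor *Tek* (2.15 and 1.25 CPM) passed the test, and 3 named oligodendrocyte markers, of 7 (0 to 4.25 against 9.15 to 53.3 CPM). The choroid plexus marker *Ttr* was at 0 to 3.98 against 4.65 to 376 CPM, and the OPC markers *Pdgfra* and *Cspg4* together at 75.6 to 121 against 117 to 250.3 CPM, where *Pdgfra* did not pass the test (79.0 and 95.2 CPM). The 5 named astrocyte markers, of 10, summed to 3676 to 5495 CPM in gmASTRs, 2261 CPM in wmASTR 4 and 4054 to 5815 CPM in the other wmASTRs. Almost all of that sum was *Gja1*, and *Aqp4* (0.200 and 3.69 CPM) and *Slc1a3* (8.25 and 21.4 CPM) had higher means in wmASTRs, while *Aldoc* had a lower one (20.9 and 12.8 CPM). In these bulk cultures, fewer cells of a type and less RNA per cell cannot be told apart, and the part of these cell types in the differences below was not tested.

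**Figure D1:**
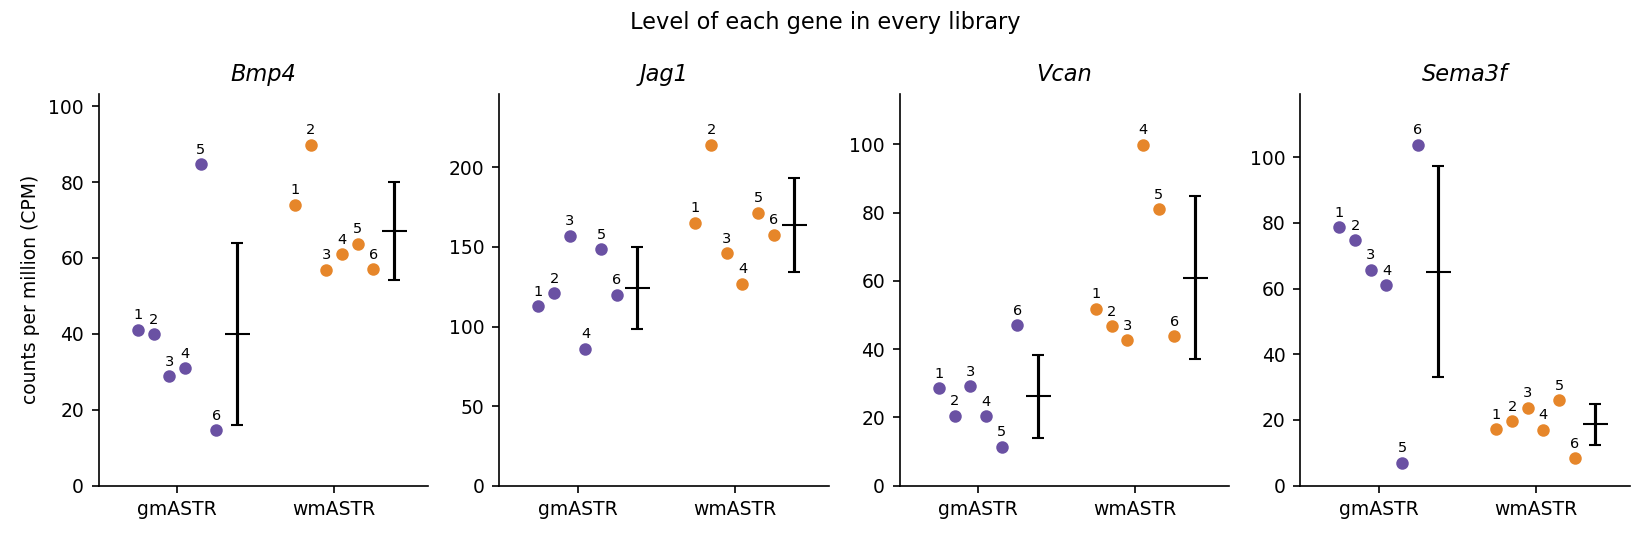
CPM of *Bmp4*, *Jag1*, *Vcan* and *Sema3f* (vertical axes, each from 0) in the 6 gmASTR and the 6 wmASTR libraries. Each point is 1 library with its replicate number, and the black mark and bar are the mean and SD of the group; gmASTR 5 is the highest gmASTR library for *Bmp4* (84.6 CPM) and the lowest for *Vcan* (11.4 CPM) and *Sema3f* (7.04 CPM).

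*Vcan* was higher in wmASTRs. Its level ranged from 11.4 to 47.0 CPM in gmASTRs, with a median of 24.6, and from 42.5 to 99.9 CPM in wmASTRs, with a median of 49.3. Of the gmASTR libraries, 5 of 6 lay below every wmASTR library, and only gmASTR 6 (47.0 CPM) reached into the wmASTR range. The means were 26.2 ± 12.1 CPM (SD, n = 6) and 61.0 ± 23.8 CPM (SD, n = 6), a log2 fold change, given throughout as gmASTR over wmASTR, of -1.29 (SE 0.28, adjusted p = 0.00526, edgeR quasi-likelihood test with Benjamini-Hochberg adjustment over 9394 genes). The fold in favour of wmASTRs was 2.45, with a 95% interval of 1.62 to 3.70. With *Sema3f*, 2 of the 4 genes passed an adjusted p of 0.05, a threshold passed by 12.3% of all genes in the filtered table, 6.69% with a higher level in wmASTRs and 5.64% with a higher level in gmASTRs. The highest *Vcan* value came from wmASTR 4, the library with the highest mural, endothelial, microglia and OPC and the lowest astrocyte marker sums, and without it the log2 fold change was -1.09 (adjusted p = 0.0158). The call was made in all 12 fits that left out a library.

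*Sema3f* was higher in gmASTRs, alone among the 4 genes. It ranged from 7.04 to 104 CPM in gmASTRs, with a median of 70.2, and from 8.43 to 26.0 CPM in wmASTRs, with a median of 18.5. In 5 of 6 gmASTR libraries it lay above every wmASTR library, at 61.0 CPM or more, while gmASTR 5 lay below all of them. The mean was 65.2 ± 32.1 CPM (SD, n = 6) in gmASTRs and 18.7 ± 6.16 CPM (SD, n = 6) in wmASTRs, a log2 fold change of 1.73 (SE 0.39, adjusted p = 0.00583, edgeR), or 3.31-fold with a 95% interval of 1.89 to 5.80. The gmASTR 5 library was also the gmASTR library with the lowest leptomeningeal marker sum (857 CPM), and that part was not tested. Without gmASTR 5 the log2 fold change was 1.96 (adjusted p = 9.65e-06). The call was lost with the replicate number as a block (log2 fold change 1.59, adjusted p = 0.0573) and with limma-voom (1.46, adjusted p = 0.0881).

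*Bmp4* had a higher mean in wmASTRs, and 1 gmASTR library stood apart from the other 5. It ranged from 14.5 to 84.6 CPM in gmASTRs, with a median of 35.4, and from 56.9 to 89.8 CPM in wmASTRs, with a median of 62.4. In 5 gmASTR libraries it was at most 41.0 CPM, below every wmASTR library, whereas gmASTR 5 (84.6 CPM) exceeded all wmASTR libraries but wmASTR 2. Over all 12 libraries the means were 39.96 ± 23.9 CPM and 67.1 ± 12.8 CPM (SD, n = 6 each), a log2 fold change of -0.79 (SE 0.29, adjusted p = 0.0868, edgeR) and a fold of 1.73 in favour of wmASTRs with a 95% interval of 1.13 to 2.66. Without gmASTR 5 the log2 fold change was -1.19 (SE 0.23, adjusted p = 0.000983), and in the other 11 fits with a library left out the gene was not called. It also passed with the replicate block (-0.98, adjusted p = 0.0285), DESeq2 (-0.80, adjusted p = 0.0418) and limma-voom (-1.03, adjusted p = 0.0183). Over all genes, 16.7% passed without gmASTR 5, 10.3% with the replicate block, 15.1% with DESeq2 and 13.3% with limma-voom.

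*Jag1* was the most evenly expressed of the 4 genes across gmASTR libraries, where its highest value was 1.83 times its lowest, against 4.12 times for *Vcan*, 5.82 times for *Bmp4* and 14.7 times for *Sema3f*. It ranged from 85.9 to 157 CPM in gmASTRs, with a median of 120.4, and from 127 to 214 CPM in wmASTRs, with a median of 161. The groups overlapped: gmASTR 3 (157 CPM) and gmASTR 5 (149 CPM) lay within the wmASTR range, and 4 of 6 gmASTR libraries lay below it. The means were 124 ± 25.7 CPM and 164 ± 29.4 CPM (SD, n = 6 each), a log2 fold change of -0.46 (SE 0.15, adjusted p = 0.0607, edgeR) and a fold of 1.37 in favour of wmASTRs with a 95% interval of 1.10 to 1.72. The difference passed without gmASTR 3 (-0.53, adjusted p = 0.0421), without gmASTR 5 (-0.54, adjusted p = 0.02004) and without wmASTR 4 (-0.52, adjusted p = 0.0428). It passed with the replicate block (adjusted p = 0.0492) and DESeq2 (adjusted p = 0.0389), and it missed with limma-voom (adjusted p = 0.0502).

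**Figure D2:**
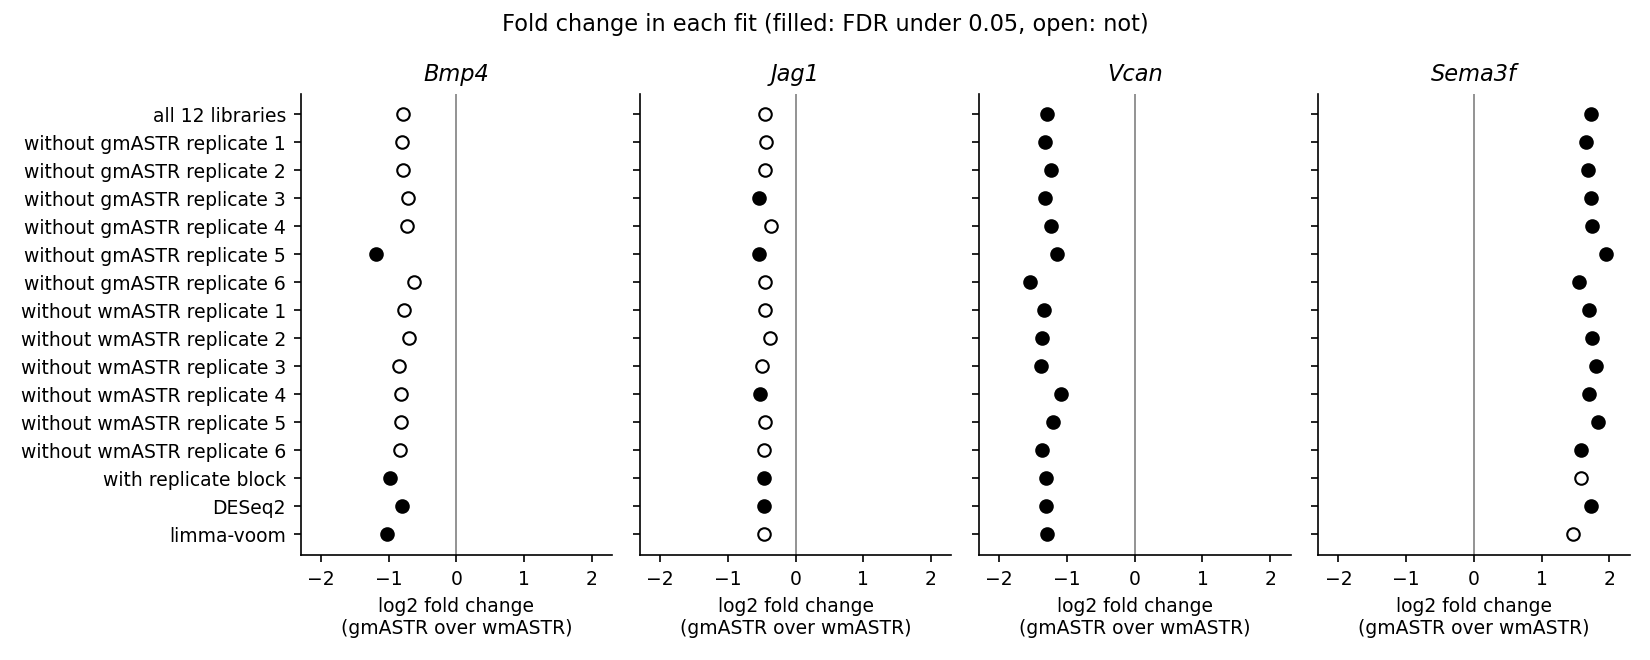
Log2 fold change (horizontal axis, gmASTR over wmASTR) of each gene in the fit of all 12 libraries, in the 12 fits that leave out a library, with the replicate block, and with DESeq2 and limma-voom. Filled points have an adjusted p under 0.05; every point of a gene is on the same side of 0, *Vcan* is filled in all of them, and *Bmp4* is filled without gmASTR 5 (-1.19) but open in the other fits that leave out a library.

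Between 2 genes of 1 library, the ratio of counts does not depend on how libraries are scaled. These ratios compare libraries, not the levels of different genes, and are given as a description with no test between groups. Reads of *Vcan* per read of *Sema3f* ranged from 0.275 to 0.452 in 5 gmASTR libraries, were 1.62 in gmASTR 5 and ranged from 1.79 to 5.88 in wmASTRs, with no overlap between groups. Reads of *Bmp4* per read of *Sema3f* ranged from 0.140 to 0.534 in those 5 gmASTR libraries and from 2.40 to 6.76 in wmASTRs. In gmASTR 5 this ratio was 12.0, above every wmASTR library. For *Jag1* per read of *Sema3f* the values were 1.16 to 2.39 in the 5 gmASTR libraries, 21.1 in gmASTR 5 and 6.16 to 18.7 in wmASTRs. In these 3 ratios, which all share *Sema3f*, gmASTR 5 lay on the wmASTR side of the other gmASTRs. It lay beyond the wmASTRs in those of *Bmp4* and *Jag1*. With *Vcan* in place of *Sema3f*, gmASTR 5 did not lie with the wmASTRs. Reads of *Jag1* per read of *Vcan* were 13.0 in gmASTR 5, 2.56 to 5.88 in the other gmASTRs and 1.27 to 4.58 in wmASTRs. For *Bmp4* per read of *Vcan* the values were 7.42, 0.310 to 1.94 and 0.610 to 1.92.

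**Figure D3:**
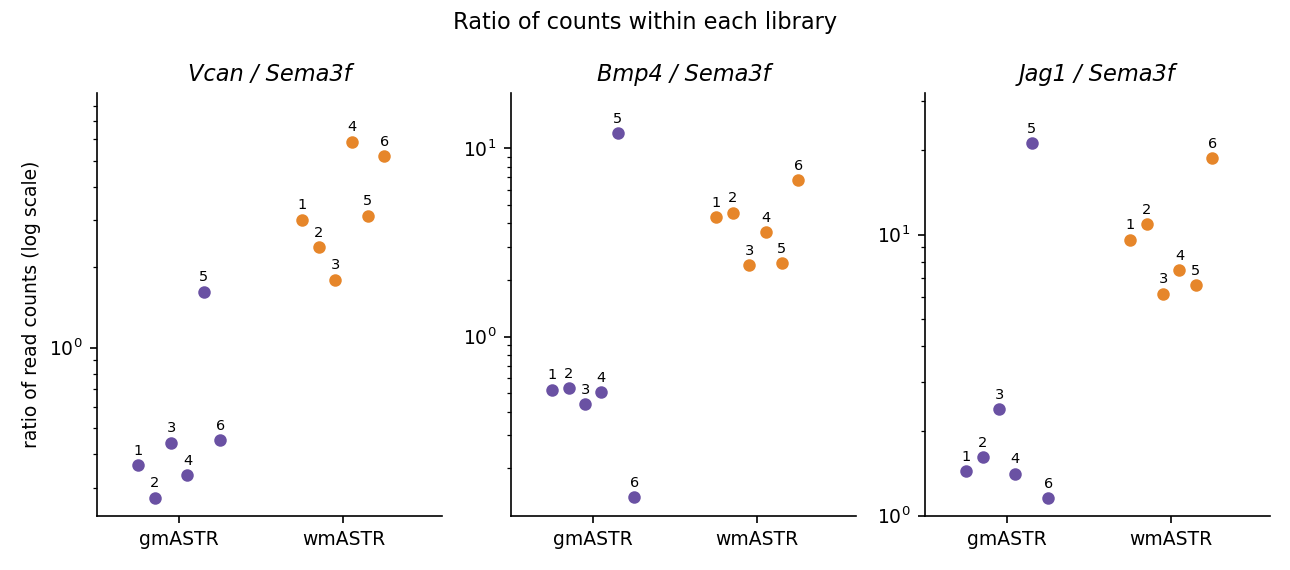
Ratio of read counts of *Vcan*, *Bmp4* and *Jag1* to *Sema3f* within each library (vertical axes, log scale), with each point 1 library and its replicate number. The other 5 gmASTR libraries lie below all wmASTR libraries in each panel, and gmASTR 5 lies at 1.62, 12.0 and 21.1.

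Genes of the same pathways were read from 5 lists with 172 genes in all. Only 30 of them have a name here, because the files carry Ensembl identifiers and names come from the study's own gene sheets, in which genes higher in gmASTRs are over-represented. Among all 1593 named genes of the filtered table, 35.7% passed the test, 28.8% with a higher level in gmASTRs and 6.97% with a higher level in wmASTRs, and the median log2 fold change was 0.65, against 0.02 over all genes. Counts over a list are therefore a description of its named genes only.

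In the BMP pathway, the secreted inhibitors *Grem1* and *Fstl3* were higher in wmASTRs and the targets *Id1* and *Id3* were higher in gmASTRs. Of 40 listed genes, 7 have a name in the filtered table and 5 passed, 3 higher in gmASTRs and 2 higher in wmASTRs, and the median log2 fold change of the 7 was 0.47. Gremlin 1 (*Grem1*), a secreted antagonist that binds BMP2, BMP4 and BMP7, ranged from 78.9 to 844 CPM in gmASTRs and from 1828 to 5940 CPM in wmASTRs. The groups did not overlap, as for 5.78% of all genes, and the log2 fold change was -3.28 (SE 0.45, adjusted p = 0.000152). *Fstl3*, a follistatin-like protein that binds activins and BMPs, averaged 41.6 ± 16.8 CPM in gmASTRs and 110.1 ± 35.1 CPM in wmASTRs (log2 fold change -1.46, adjusted p = 0.000935). *Id1*, a direct target of BMP-activated SMADs, was at 104 to 198 CPM in gmASTRs and 66.6 to 88.6 CPM in wmASTRs, again with no overlap (log2 fold change 0.78, SE 0.14, adjusted p = 0.00138). All 3 calls were made in each of the 12 fits that left out a library. *Id3* was higher in gmASTRs at 725 ± 141 against 501 ± 92.6 CPM (log2 fold change 0.47, adjusted p = 0.0250), a call that was lost without gmASTR 4, wmASTR 4, wmASTR 5 or wmASTR 6 (adjusted p up to 0.0697). *Id4* had a log2 fold change of 0.87 (adjusted p = 0.0755) and passed without gmASTR 5 (adjusted p = 0.0165) and without wmASTR 1 (adjusted p = 0.0302).

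Both other named ligands of the BMP family were higher in gmASTRs. *Bmp3*, whose product is known to oppose osteogenic BMPs, ranged from 7.23 to 52.3 CPM in gmASTRs and from 4.63 to 17.6 CPM in wmASTRs. Its log2 fold change was 1.36 (SE 0.41, adjusted p = 0.0357), and the call was lost without any 1 of gmASTR 1, 2, 3 and 6 and wmASTR 1, 2 and 6 (adjusted p up to 0.102), with the replicate block (adjusted p = 0.110) and with limma-voom (adjusted p = 0.0954). As with *Sema3f*, its lowest gmASTR value came from gmASTR 5. *Gdf6*, a related ligand outside the filtered table, was at 0 in gmASTR 5 and averaged 13.0 ± 8.96 against 1.57 ± 1.61 CPM. In the fit of the 15478 genes with at least 1 count, of which 7.73% passed, its log2 fold change was 2.93 (SE 0.82, adjusted p = 0.0240), and it was not refitted with libraries left out.

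In the Notch pathway, 3 of 34 listed genes have a name in the filtered table, and 1 passed. *Psen2*, which encodes a presenilin of the complex that cleaves Notch, averaged 56.0 ± 6.54 CPM in gmASTRs and 38.1 ± 7.55 CPM in wmASTRs (log2 fold change 0.49, adjusted p = 0.0460). This call held only without gmASTR 3 or wmASTR 3 among the fits that left out a library, and was lost in the other 10 (adjusted p up to 0.105) and with the replicate block (adjusted p = 0.0794). *Hey2*, a Notch target that encodes a transcriptional repressor, ranged from 10.7 to 57.7 CPM in gmASTRs and from 9.03 to 22.1 CPM in wmASTRs. Its log2 fold change was 0.94 (adjusted p = 0.0644), and it passed without gmASTR 5 (1.11, adjusted p = 0.00784) and without gmASTR 1 (adjusted p = 0.0445). The receptor *Notch2* and the target *Nrarp* were low, at 2.42 and 1.61 CPM (*Notch2*) and 4.68 and 2.74 CPM (*Nrarp*). Their differences did not pass (adjusted p = 0.819 and 0.648), and *Nrarp* ranged from 0 to 45 counts among wmASTR libraries.

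Among lectican and hyaluronan matrix genes, 4 of 40 have a name, all in the filtered table, and 2 passed, both higher in wmASTRs. Besides *Vcan* this was *Cspg4*, the transmembrane proteoglycan NG2, which is also a marker of OPCs and pericytes. *Cspg4* ranged from 6.85 to 34.9 CPM in gmASTRs and from 23.2 to 199.8 CPM in wmASTRs, with the highest value in wmASTR 4 (log2 fold change -1.92, SE 0.43, adjusted p = 0.00577). It passed in all 12 fits that left out a library, and without wmASTR 4 it was the least changed, at -1.39. *Cd44*, the hyaluronan receptor, averaged 36.2 ± 6.87 and 46.3 ± 3.81 CPM (log2 fold change -0.42, adjusted p = 0.0989). *Adamts9*, a protease that cleaves versican, had a log2 fold change of 1.86 (adjusted p = 0.0650), with 20.7 CPM in gmASTR 5 and at most 6.80 CPM in any other library. Without gmASTR 5 its log2 fold change was 1.26 (adjusted p = 0.192), and with DESeq2 it passed (adjusted p = 0.0155).

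Class 3 semaphorin signalling had 5 of 24 genes with a name, and 3 passed, all higher in gmASTRs. With the replicate block and with limma-voom 1 of them passed, which was *Sema3d*. This secreted relative of *Sema3f* ranged from 47.2 to 319 CPM in gmASTRs and from 10.3 to 53.3 CPM in wmASTRs (log2 fold change 2.86, SE 0.38, adjusted p = 0.000124), and passed in all 12 fits that left out a library. Its lowest gmASTR library was again gmASTR 5, the only gmASTR library that reached the wmASTR range. *Dpysl3*, a cytosolic protein of the family that relays semaphorin signals to the cytoskeleton, averaged 234 ± 65.2 and 158 ± 25.7 CPM (log2 fold change 0.50, adjusted p = 0.0489). That call remained without gmASTR 4, gmASTR 5 or wmASTR 3 and was lost in the other 9 such fits (adjusted p up to 0.139), with the replicate block (adjusted p = 0.0661) and with limma-voom (adjusted p = 0.0585). The receptor *Plxna3* (5.12 and 3.03 CPM) and *Dpysl2* (5.77 and 2.38 CPM) were low and did not pass (adjusted p = 0.431 and 0.165).

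Of 34 other guidance and inhibitory cues, 6 have a name in the filtered table and 4 passed, 2 in each direction. The 2 that were higher in wmASTRs are ligands of the TGF-β superfamily. *Tgfb1*, also of that superfamily, had a log2 fold change of the opposite sign and did not pass (0.65, adjusted p = 0.469). *Inhba*, which encodes the subunit of activin A, averaged 49.2 ± 23.0 CPM in gmASTRs and 197 ± 36.9 CPM in wmASTRs (log2 fold change -2.06, SE 0.27, adjusted p = 8.24e-05). *Tgfb2* averaged 211 ± 78.3 and 515 ± 103 CPM (log2 fold change -1.34, SE 0.21, adjusted p = 0.000474), and neither gene overlapped between groups. The 2 that were higher in gmASTRs encode ephrins, membrane-bound repellent cues: *Efnb1* averaged 80.2 ± 23.8 and 44.3 ± 13.1 CPM (log2 fold change 0.80, adjusted p = 0.0194) and *Efna1* 18.3 ± 8.66 and 7.13 ± 2.91 CPM (1.28, adjusted p = 0.0280). The *Efnb1* call was lost without gmASTR 4 or wmASTR 6 (adjusted p up to 0.0548), and that of *Efna1* without gmASTR 2, 4 or 6 or wmASTR 2 or 4 (adjusted p up to 0.0864). Both were lost with the replicate block (adjusted p = 0.0520 and 0.108). The calls of *Inhba* and *Tgfb2* were made in all 12 fits. *Sema5a*, a transmembrane semaphorin outside the filtered table, averaged 6.63 ± 2.12 and 0.703 ± 0.791 CPM (log2 fold change 3.10, adjusted p = 0.0214 in the fit of 15478 genes).

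**Figure D4:**
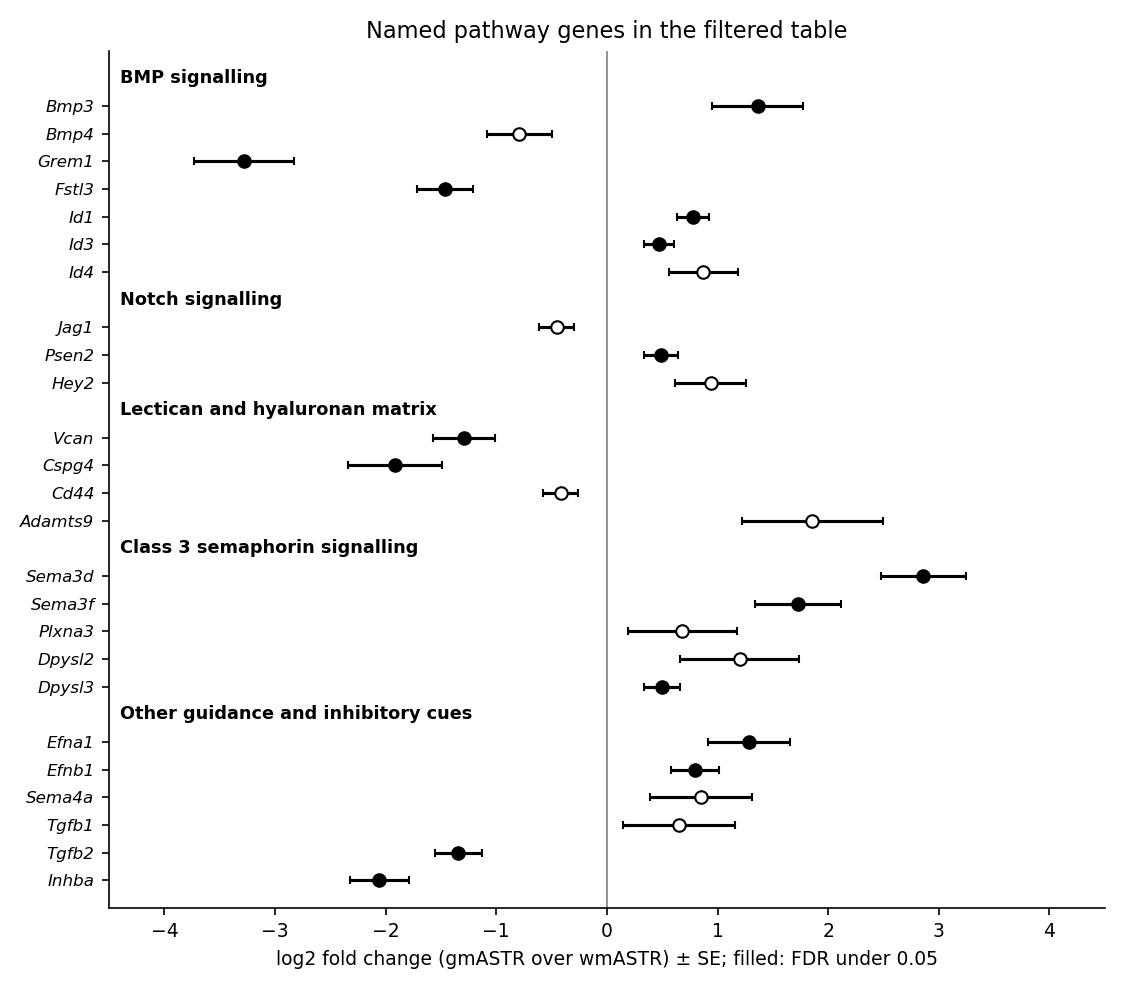
Log2 fold change (horizontal axis, gmASTR over wmASTR) with its SE for the named genes of the 5 lists in the filtered table. Filled points have an adjusted p under 0.05; in the BMP list *Grem1* (-3.28) and *Fstl3* (-1.46) lie on the opposite side of 0 from *Id1* (0.78) and *Id3* (0.47).

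The profiles most like each gene were sought among the 720 other named genes with a mean of at least 20 CPM, by the root mean square difference of log2(CPM + 1) over the 12 libraries after each profile was centred on its own mean. *Bmp4* lay closest to *Col6a2*, a collagen VI chain, at 0.23, *Col4a1*, a collagen IV chain of basement membranes, at 0.33 and *Ltbp2*, a microfibril-associated protein, at 0.34, against a median of 1.07 over all candidates. Like *Bmp4*, *Col6a2* had its highest gmASTR value in gmASTR 5, 342 CPM against 94.1 to 233 CPM in the others. *Jag1* lay closest to *Cd44*, *Fbln5* and *Dkk3* (0.25, 0.27 and 0.27, median 0.72). *Vcan* lay closest to the collagen gene *Col12a1* (0.41), the matrix Gla protein gene *Mgp* (0.53) and the lysyl oxidase gene *Lox* (0.57), with a median of 1.13. *Sema3f* lay closest to *Grb10*, an adaptor of growth factor receptors, at 0.46, to *Thbd*, the thrombomodulin gene, at 0.46 and to *Cdc20*, a mitotic gene, at 0.49, with a median of 0.98. All 3 also had their lowest gmASTR value in gmASTR 5. These distances describe 12 libraries that share their group structure, with no test.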

How the data were processed

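RNA of 12 cultures (6 gmASTRs, 6 wmASTRs) was sequenced with a 3′ kit. By the authors, reads were mapped by HISAT (0.1.5), put in order by SAMtools (1.2) and turned into counts per Ensembl gene by HTSeq (0.6.1p1), in union mode and without strand, so reads of overlapping antisense genes cannot be told apart. The genome is given as that of rat in the methods and as GRCm38, a mouse assembly, in the processing notes, and identifiers are those of rat. The deposited values are raw counts, in a table of 17941 genes and a filtered table of 9394 genes, whose members all reach 2 counts in 11 or more of the 12 libraries, as no other gene does. Library totals of 4920488 to 7207118 reads set the precision, and molecular identifiers are not stated, so floors cover counting error only.

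CPM was computed from totals of the filtered table. Groups were compared with edgeR (4.0.16) in R (4.3.3): TMM, a model with region alone, the quasi-likelihood test, 0.125 as prior count, Benjamini-Hochberg adjustment over all genes tested and a threshold of 0.05. Genes outside the filtered table were fitted with the 15478 genes that have at least 1 count, and their CPM uses the totals of the larger table. On simulated data with 9394 genes for this comparison, 49% to 50% of 2-fold and 84% to 85% of 4-fold changes were recovered. Alternatives used DESeq2 (1.42.0), limma (3.58.1), other scalings and filters, a replicate block and each library left out. Names came from the study's gene sheets, 2010 by identifier and 85 by matching 12 CPM values (within 0.02 on the log2 scale, after adding 0.5), which gave all 4 genes. The methods describe 6 separate culture preparations and both cultures of an animal as made together, but which gmASTR and wmASTR libraries share an animal, and what replicate numbers mark, are not stated. Promoters came from RefSeq (GRCr8).

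The 4 genes, the lists and the tests were chosen with earlier results of these data known. Pathway genes named are the called genes of each list with the smallest adjusted p per role, up to 3 a direction, and relatives of the 4 genes, and the uncalled ones were added after their values were seen.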

Additional observations from a re-analysis of the deposited data

Results flagged for a closer look

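Of 12 groups of 6 libraries formed by the count ratios between the 4 genes, 5 held a library far from the others by Dixon's test, and it was gmASTR 5 each time. Its reads per read of *Sema3f* were 12.0 for *Bmp4*, 21.1 for *Jag1* and 1.62 for *Vcan*, and its reads per read of *Vcan* were 7.42 for *Bmp4* and 13.0 for *Jag1*. These ratios share genes and are not independent. The CPM values of the 4 genes themselves gave no such library in 8 groups. Among the 52 groups of the other named list genes, 4 did: *Adamts9* at 20.7 CPM in gmASTR 5, *Sema4a* at 2.84 CPM in gmASTR 6, *Tgfb1* at 15.6 CPM in gmASTR 4 and *Tgfb2* at 709 CPM in wmASTR 4. Chance alone marks about 1 in 20 groups if values are normally spread. The test was run on unlogged ratios and CPM only, and other groups may be marked on a log scale.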

How the results depend on the processing

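Each of the 4 differences kept its direction under all 21 alternatives. That of *Vcan* passed under each that gave an adjusted p. Its log2 fold change was -1.54 to -1.09 when single libraries were left out and smallest, -0.95, without both gmASTR 5 and wmASTR 4. The *Bmp4* difference passed with DESeq2 (-0.80) and limma-voom (-1.03), and without both of those libraries (-1.21). That of *Jag1* passed with DESeq2 (-0.46) and without both libraries (-0.60). That of *Sema3f* was lost with limma-voom (1.46). An exact two-sided permutation test of log2(CPM + 1), with 924 divisions, was 1 of the 21 alternatives and gave no adjusted p. Its unadjusted p was 0.0216 for *Bmp4* (-0.90), 0.0260 for *Jag1* (-0.40), 0.00866 for *Vcan* and 0.0303 for *Sema3f*. Each was larger than the unadjusted p of the main edgeR test (0.0146, 0.00824, 0.000222 and 0.000265). Leaving out single libraries gave -1.19 to -0.62 for *Bmp4*, -0.54 to -0.37 for *Jag1* and 1.54 to 1.96 for *Sema3f*. The cause of these shifts was not tested.

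With the replicate number as a block, *Bmp4* (-0.98) and *Jag1* (-0.47) passed and *Sema3f* (1.59) did not. The whole table gave 970 calls in place of 1158, semaphorin signalling 1 in place of 3 and the other cues 2 in place of 4. Lost list genes were *Bmp3*, *Psen2*, *Dpysl3*, *Efna1* and *Efnb1*. Same-numbered libraries did not deviate together (correlations of -0.0327 to 0.0109 over genes), and 0 of 6 gmASTR libraries correlated best with the wmASTR library of its number, so the numbers are not shown to pair them.

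The Notch list, with 1 call, gave 0 with RLE size factors and with the larger table in edgeR (3 genes at an unadjusted p under 0.05 in both), 2 without scaling, 3 with DESeq2 and 2 without both gmASTR 5 and wmASTR 4. RLE size factors ended the calls of *Psen2* (adjusted p = 0.0504) and *Dpysl3* (adjusted p = 0.0531). With limma-voom, semaphorin signalling gave 1 call, and the BMP list gave 5 with *Bmp4* gained and *Bmp3* lost. Without single libraries, calls ranged from 883 to 1569 over the whole table, 3 to 7 for BMP, 0 to 2 for Notch, 2 to 2 for the matrix list, 2 to 3 for semaphorins and 2 to 4 for the other cues. No log2 fold change of a named list gene in the filtered table reversed. *Notch2*, *Nrarp*, *Acvr2b*, *Gdf6*, *Sema5a* and *Adamts9* had 0 counts in some libraries, where 3 counts correspond to 0.418 to 0.613 CPM.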
